A study of Mus musculus with 24 samples.

Results

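The antioxidant and glutathione enzymes of mouse plantaris muscle were followed as a fixed set of 38 genes, taken by symbol from a table of 47643 genes. All 38 were found in the table. Plantaris is a fast hindlimb muscle of the calf. Every sample came from wild-type mice of the C57BL/6 strain, and 2 groups were sequenced: 11 samples from mice that breathed normal air and 13 from mice that were exposed to tobacco smoke over 16 weeks. The title of the series concerns chronic activity of the aryl hydrocarbon receptor, a transcription factor with ligands in tobacco smoke, and muscle impairment. At issue is whether transcripts of the enzymes that handle oxidants and reactive compounds differed in muscle after long exposure. The sources used here give no age and do not say that each sample was 1 animal, so the p-values measure the spread between these samples only.

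The enzymes form a relay. Superoxide dismutases turn superoxide into hydrogen peroxide, which catalase, the glutathione peroxidases and the peroxiredoxins remove. Thioredoxins, glutaredoxins and glutathione return the oxidised enzymes to their working state, methionine sulfoxide reductases repair oxidised methionine, and glutathione transferases attach glutathione to reactive compounds. Working muscle makes superoxide in its mitochondria and at its membranes, and each compartment holds its own set of enzymes. For the comparison, 21 genes were placed in the cytosol, 9 in mitochondria, 2 outside the cell, 5 in the endoplasmic reticulum (ER) and other membranes, and 1 in peroxisomes. Several products are known from more than 1 place (those of Sod1, Gpx1, Gpx4, Gsr, Gstk1, Prdx5, Msra and Mgst1), and each of these was counted once.

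Some of the peroxidases carry selenocysteine, which is read from a TGA codon that elsewhere stops translation. The codon and its coding neighbours are shown for the 5 glutathione peroxidase genes of the set because this codon splits them in the same way as their level in plantaris did. All 5 stretches lie in coding exons and come from GENCODE M21 transcripts on GRCm38, with the active-site codon in capitals. The codons lie at chr9:108339451-108339453 (Gpx1, plus strand), chr11:54907256-54907258 (Gpx3, plus strand), chr10:80054737-80054739 (Gpx4, plus strand), chr4:108403430-108403432 (Gpx7, minus strand) and chr13:113045661-113045663 (Gpx8, minus strand). In Gpx7 and Gpx8 it is the codon that aligns with that of Gpx1.
Gpx1: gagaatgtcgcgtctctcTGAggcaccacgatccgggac
Gpx3: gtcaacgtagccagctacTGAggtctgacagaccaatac
Gpx4: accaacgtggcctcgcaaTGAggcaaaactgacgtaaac
Gpx7: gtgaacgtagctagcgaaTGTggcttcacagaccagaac
Gpx8: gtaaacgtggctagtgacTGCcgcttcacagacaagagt
The TGA genes had mean levels of 153 ± 29.4 (Gpx1), 114 ± 34.9 (Gpx3) and 65.6 ± 9.15 (Gpx4) CPM, a library-scaled count explained in the next paragraph, in air (SD, n = 11). Gpx7 and Gpx8, in which a cysteine codon (TGT or TGC) takes the place, had 2.94 ± 1.42 and 2.28 ± 1.24 in air and did not pass the filter on low counts. Gpx7 and Gpx8 are also the only ones of the 5 placed in the ER and other membranes, so codon and compartment cannot be told apart here. Between 5 genes this is a description only.

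Levels are counts scaled to a common library total (CPM) on libraries adjusted by the TMM method. The libraries were made from transcript 3′ ends, so a transcript gives reads near its end whatever its length, and CPM values of different genes were set side by side without division by length. Total counts ran from 2515697 to 4528845 per sample, and 3 counts, taken as the floor of detection, were worth 0.665 to 1.15 CPM on the scaled libraries. Counting error only is covered by this floor. Markers of fast fibres (Myh4, Myh1, Actn3, Tnnt3 and Tnni2) summed to between 75403 and 122805 CPM in air and between 83596 and 107605 in smoke, against at most 299 CPM for 5 slow-fibre markers, and no marker of either list was called. The file headers number all smoke samples before all air samples, so that this order and group cannot be told apart. What the numbers stand for is not given. All 24 headers name lane 6.

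The enzymes spanned a wide range of levels. Sod1, the cytosolic copper-zinc dismutase, was the most abundant at 402 ± 31.3 CPM in air (SD, n = 11), followed by Prdx1, a cytosolic peroxiredoxin, at 334 ± 26.5 and Sod2, the manganese dismutase of the mitochondrial matrix, at 249.5 ± 28.6. Prdx1 and Sod2 were the sole neighbours in the order of air means whose ranges over the 11 air samples did not overlap. Below them came Glrx5, a mitochondrial glutaredoxin of iron-sulfur cluster assembly, Prdx6, Gpx1, Prdx2, Prdx5, Msrb1, Cat and Gpx3, between 168 and 114 CPM. Txn2, Gpx4, Gstk1, Gstm1, Mgst1 and Mgst3 lay between 78.3 and 46.4 CPM, and Glrx2, Txn1, Gstm5, Gstm2, Gstz1, Prdx3, Msra, Gsr, Gstp1, Txnrd2, Gsto1, Gstt2 and Gsta4 from 45.1 CPM (Glrx2) down to 11.96 CPM (Gsta4). Sod3, Gss, Glrx, Prdx4 and Gstt1 lay between 6.47 and 4.06 CPM.

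**Figure D1:**
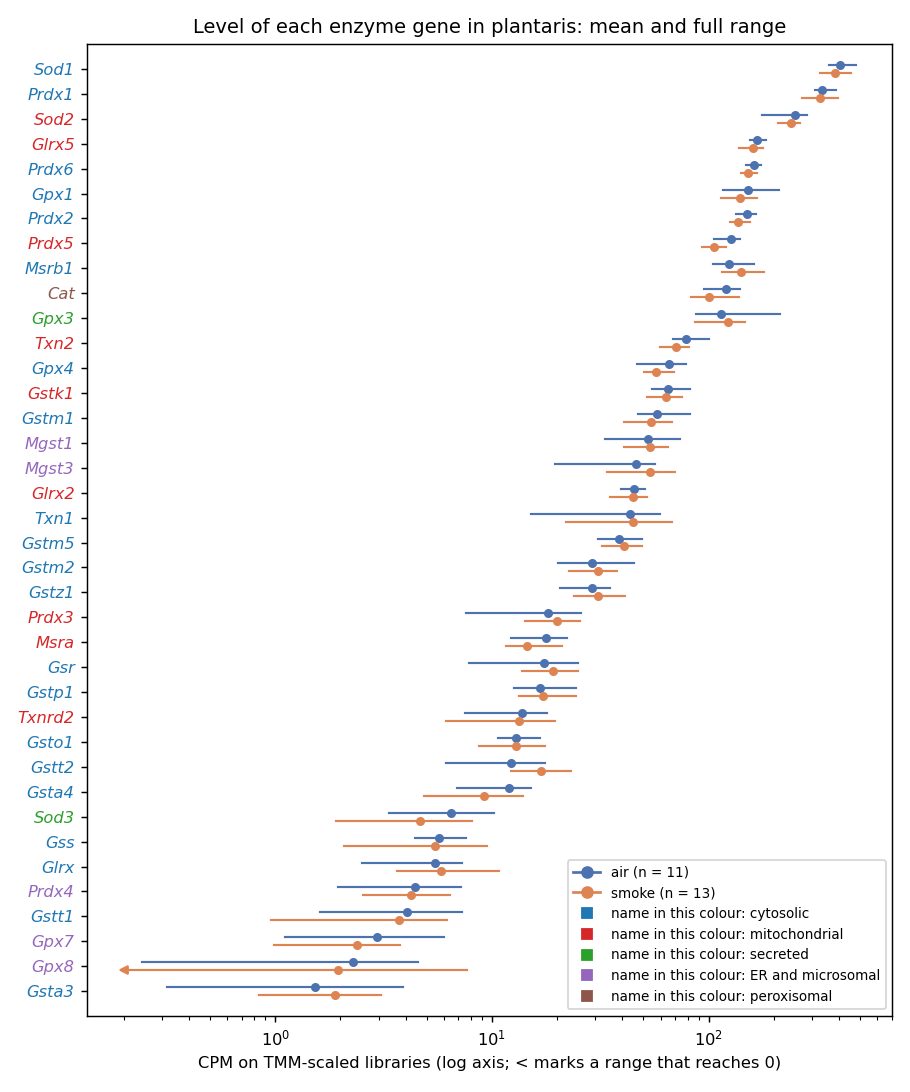
Mean level (point) and full range (line) of the 38 enzyme genes in CPM on a log axis, air in blue (n = 11 samples) and smoke in orange (n = 13), with gene names coloured by compartment. Sod1, Prdx1 and Sod2 lead the order, and the ranges of air and smoke overlap for every gene; the smoke range of Gpx8 reaches 0 and is drawn from the left edge.

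Summed by family, the peroxiredoxins were the largest pool at 796 ± 35.4 CPM in air and 746 ± 43.8 in smoke (SD, n = 11 and 13). The 3 dismutases summed to 658 ± 15.0 and 628 ± 36.2 CPM, the 13 glutathione transferases to 377 ± 21.7 and 389 ± 16.1, and the 5 glutathione peroxidases to 337 ± 63.6 and 323 ± 30.0. The means of the peroxiredoxin and dismutase pools were lower in smoke and that of the transferase pool was higher, each with overlapping ranges. By compartment, the cytosolic genes summed to 1677 ± 97.6 CPM in air and 1629 ± 88.6 in smoke, the mitochondrial genes to 783 ± 35.6 and 735 ± 26.3, and the secreted genes to 120 ± 35.3 and 127 ± 17.5. Sums follow their most abundant genes, and no test was made on them.

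Smoke was compared with air by edgeR's quasi-likelihood test on all genes that passed the filter, and a gene was called at a Benjamini-Hochberg adjusted p under 0.05 over all of them. Of the 38 enzyme genes 35 were tested and 1 was called: Prdx5 fell. Over all 10159 genes tested, 195 were called (1.92%), 74 higher (0.728%) and 121 lower (1.19%). At an unadjusted p under 0.05 there were 11 enzyme genes of 35 (31.4%), 2 higher and 9 lower, against 15.5% of all tested genes (7.55% higher and 7.95% lower). The set was chosen with earlier results of these data known, so these shares are not an independent comparison. No enzyme gene had groups that did not overlap in CPM, which 0.0295% of tested genes had. The median log2 fold change of the 35 was -0.03, with a range from -0.45 to 0.47, beside 0.0066 over all tested genes. With 1 sample left out the median of the 35 ran from -0.05 (without smoke replicate 8) to -0.01 (without air replicate 6).

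Gsta3, Gpx7 and Gpx8 did not pass the filter on low counts and were not tested. Gsta3, an alpha-class transferase, had 60 counts in all air samples together and 81 in smoke, Gpx7 had 113 and 106, and Gpx8, a peroxidase of the ER membrane, had 88 and 86.

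**Figure D2:**
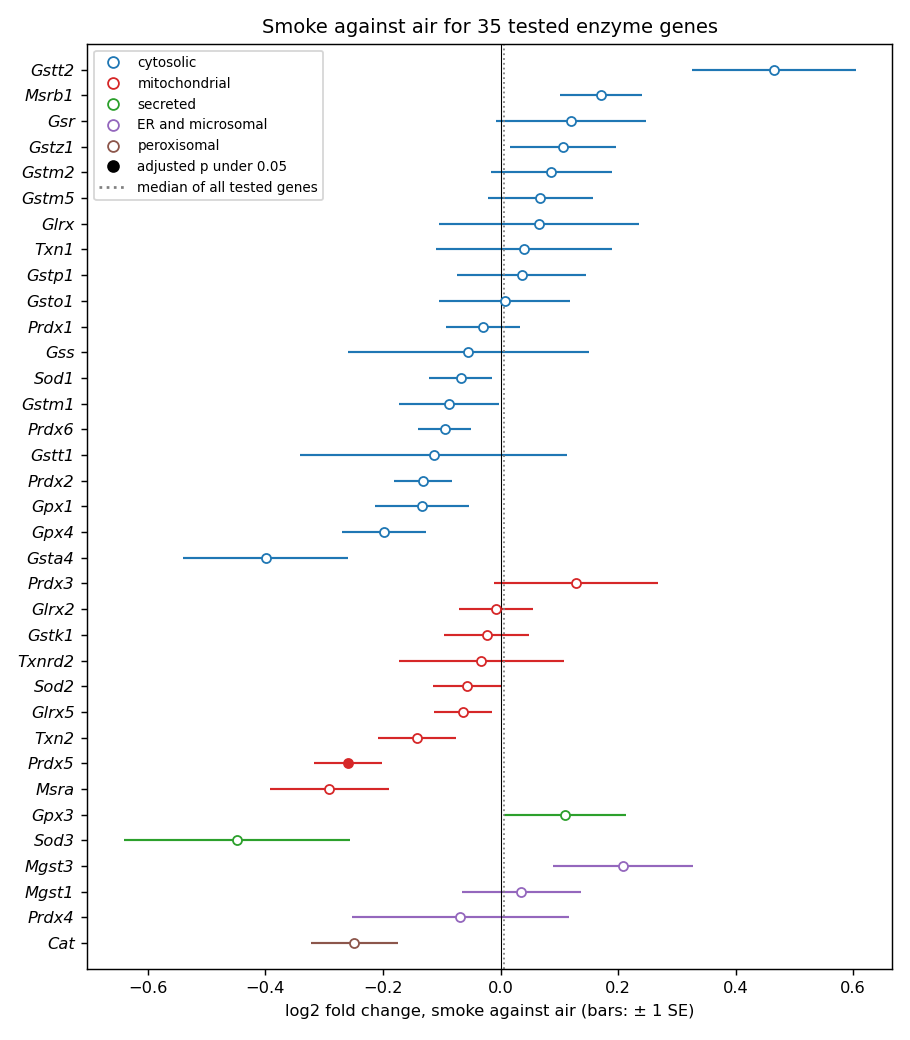
Log2 fold change of smoke against air with 1 SE on each side for the 35 tested enzyme genes, grouped by compartment (edgeR, n = 11 air and 13 smoke samples). The filled point, Prdx5 at -0.26, is the one gene with an adjusted p under 0.05, and the dotted line marks the median of all 10159 tested genes.

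Prdx5 (ENSMUSG00000024953, chr19:6906697-6910106, minus strand, GRCm38) encodes a peroxiredoxin found in mitochondria, peroxisomes and the cytosol that removes hydrogen peroxide, alkyl hydroperoxides and peroxynitrite. Its level in air had a lowest, median and highest value of 106, 131 and 140 CPM, and in smoke of 93.5, 106 and 121 CPM. The 8 highest air samples lay above every smoke sample and the 6 lowest smoke samples lay below every air sample, with an overlap in between. All 13 smoke samples lay below the air mean. The means were 127 ± 11.9 CPM (SD, n = 11) and 106 ± 9.22 (SD, n = 13), so that Prdx5 fell by 16.5%, a log2 fold change of -0.26 ± 0.058 (SE) and an edgeR adjusted p of 0.0125. With an erythroid score or a clock index as a covariate, both described further on, the log2 fold change was -0.22 and -0.26 with an adjusted p of 0.153 and 0.159. Its share of all peroxiredoxin counts was 16.0 ± 1.43% in air and 14.3 ± 1.40% in smoke. In bulk muscle, fewer cells of a type and less RNA per cell cannot be told apart.

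The Prdx5 gene overlaps Trmt112, a methyltransferase subunit gene on the opposite strand, and the use of strand in counting is not given in the sources used here. Trmt112 had 823 counts over all samples against 9661 for Prdx5, and a log2 fold change of -0.13 ± 0.14 (SE) and an edgeR adjusted p of 0.729. The tested genes whose pattern was most like that of Prdx5, by Pearson's r of log2 CPM over 24 samples after each group was centred on its mean, were Ppp1r14b (r = 0.72), Fbxo38 (r = 0.66) and Gga1 (r = 0.65). Their log2 fold changes were 0.04, -0.09 and 0.17, and none was called.

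Of the 9 mitochondrial genes, 8 had a negative log2 fold change, with a median of -0.06, and 3 reached an unadjusted p under 0.05, all lower in smoke. The other two were Msra and Txn2. Msra encodes the reductase of methionine-S-sulfoxide. Its lowest, median and highest levels were 12.3, 17.5 and 22.2 CPM in air and 11.6, 13.4 and 21.1 CPM in smoke, with a log2 fold change of -0.29 ± 0.10 (SE) and an edgeR adjusted p of 0.128, and 12 of 13 smoke samples lay below the air mean. The ranges overlapped almost whole, with 1 air sample above all smoke samples and 1 smoke sample below all air samples.

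Txn2, the mitochondrial thioredoxin that keeps Prdx3 and Prdx5 reduced, had levels of 68.2, 76.5 and 101 CPM in air and 59.6, 69.3 and 81.1 CPM in smoke (lowest, median and highest). Its log2 fold change was -0.14 ± 0.066 (SE), with edgeR adjusted p = 0.282, and 10 of 13 smoke samples lay below the air mean. Sod2, the most abundant mitochondrial enzyme gene, had 176, 250.6 and 285 CPM in air and 209, 243.9 and 265 CPM in smoke. The smoke range of Sod2 lay inside the air range, with a log2 fold change of -0.06 ± 0.058 (SE) and an edgeR adjusted p of 0.708. It ran from -0.10 (without air replicate 11) to -0.04 (without air replicate 1) with 1 sample left out. Prdx3, the peroxiredoxin confined to mitochondria, was the one mitochondrial gene with a positive value, 0.13 ± 0.14 (SE), with adjusted p = 0.722. Glrx2, Gstk1, Txnrd2 and Glrx5 had values from -0.01 to -0.06.

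The cytosolic enzymes had no called gene of 20 tested with edgeR. At an unadjusted p under 0.05 there were 6, 2 higher (Gstt2 and Msrb1) and 4 lower (Gsta4, Gpx4, Prdx2 and Prdx6). Signs were even, with 10 negative and 10 positive values and a median of -0.01. Gstt2, a theta-class glutathione transferase that acts on small electrophiles, had the smallest p of the cytosolic genes. Its levels were 6.11, 12.1 and 17.6 CPM in air and 12.2, 17.1 and 23.2 CPM in smoke (lowest, median and highest). The 13 smoke samples all lay above the air mean and 6 lay above every air sample. Means were 12.2 ± 3.60 CPM (SD, n = 11) and 16.8 ± 3.39 (SD, n = 13), with a log2 fold change of 0.47 ± 0.14 (SE) and an edgeR adjusted p of 0.0705. The gene rests on 23 to 72 counts per sample. With air replicate 11 left out its adjusted p was 0.0346, and with air replicate 1 left out 0.0437.

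Msrb1, a selenoprotein that reduces methionine-R-sulfoxide, is the counterpart of Msra. Its levels were 105, 118 and 162 CPM in air and 116, 137 and 179.6 CPM in smoke, with a log2 fold change of 0.17 ± 0.069 (SE) and an edgeR adjusted p of 0.206, and 12 of 13 smoke samples lay above the air mean. The 2 methionine sulfoxide reductases of the set thus had values of opposite sign, neither of them called, and the difference between them was not tested. With the clock index as a covariate, described further on, Msrb1 stood at 0.010 (adjusted p = 0.975).

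Gsta4 encodes the alpha-class transferase known for conjugating 4-hydroxynonenal, a product of lipid peroxidation. Its levels were 6.91, 12.7 and 15.2 CPM in air and 4.87, 9.15 and 13.9 CPM in smoke, with a log2 fold change of -0.40 ± 0.14 (SE) and an edgeR adjusted p of 0.134. Gpx4, the peroxidase of phospholipid hydroperoxides that guards cells from ferroptosis, had 46.7, 66.6 and 78.5 CPM in air and 50.4, 56.3 and 68.9 CPM in smoke, with a log2 fold change of -0.20 ± 0.071 (SE) and an edgeR adjusted p of 0.146. For both genes 12 of 13 smoke samples lay below the air mean, and the groups overlapped. Of the 50-base stretches in the last 300 bases of Gpx4 transcripts, 83.4% also occur in the pseudogene Gpx4-ps2, so the counts of Gpx4 are uncertain. Gpx4-ps2 itself was not in the table.

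Prdx2 and Prdx6 are abundant cytosolic peroxiredoxins, of the 2-cysteine and the 1-cysteine type. Prdx2 levels were 133, 151 and 165 CPM in air and 126, 135 and 155 CPM in smoke, with a log2 fold change of -0.13 ± 0.049 (SE) and an edgeR adjusted p of 0.161. Prdx6 levels were 149.6, 160.3 and 175 CPM in air and 142, 149 and 168 CPM in smoke, with a log2 fold change of -0.10 ± 0.044 (SE) and an edgeR adjusted p of 0.285. For each, 12 of 13 smoke samples lay below the air mean. Prdx2 overlaps Junb and Rnaseh2a on the opposite strand, which had 328 and 682 counts in all against 11894.

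Sod1 had 358, 401 and 478 CPM in air and 328, 371 and 456 CPM in smoke, with a log2 fold change of -0.07 ± 0.054 (SE) and an edgeR adjusted p of 0.600. Gpx1, the main cytosolic glutathione peroxidase, had a log2 fold change of -0.13 ± 0.080 (SE), with adjusted p = 0.446. Neither was called. Prdx1 had a value of -0.03, Txn1, the cytosolic thioredoxin, of 0.04, Gsr, which reduces glutathione disulfide, of 0.12, and Gss, which makes glutathione, of -0.05. The remaining transferases Gstm1, Gstm2, Gstm5, Gstp1, Gstt1, Gsto1 and Gstz1 had values from -0.11 to 0.11. Gstp1 shares 76.7% of its final 50-base stretches with other genes, chiefly Gstp2, and its counts are uncertain for that reason. Prdx1 shares 31.8%, Gstm1 23.0% and Sod1 18.3% of these stretches with other genes or pseudogenes. Gm21399, Gm7204 and Gm15974 (for Prdx1) and Gstm3 and Gstm2-ps1 (for Gstm1) had 0 counts, and Gm8834 (for Gstm1) was not in the table. Gm8566 (for Sod1) had 424 counts against 32672. The counting tool, and with it the handling of shared reads, is not given in the sources used here.

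**Figure D3:**
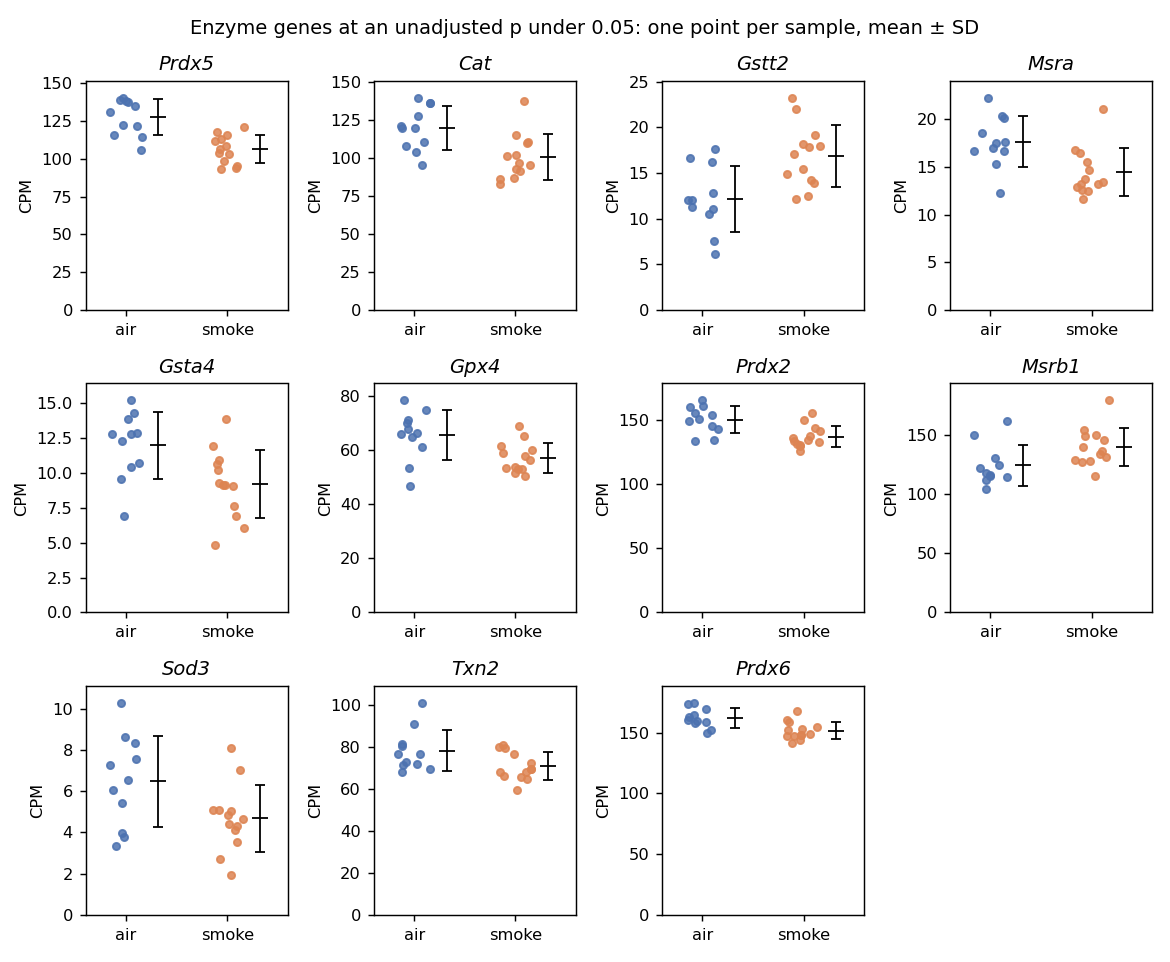
Level in CPM of the 11 enzyme genes with an unadjusted p under 0.05, one point per sample, with mean ± SD beside each group (air n = 11, smoke n = 13). All 13 smoke samples lie below the air mean for Prdx5 and above it for Gstt2, and the groups overlap in every panel.

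The secreted enzymes are Gpx3, the plasma peroxidase, and Sod3, the dismutase that binds the extracellular matrix. Neither was called by edgeR, and Sod3 had an unadjusted p of 0.0257. Sod3 levels were 3.36, 6.55 and 10.3 CPM in air and 1.91, 4.63 and 8.08 CPM in smoke (lowest, median and highest), with a log2 fold change of -0.45 ± 0.19 (SE) and an edgeR adjusted p of 0.233. Only 6 to 37 counts per sample stand behind it, and 11 of 13 smoke samples lay below the air mean. With the clock index as a covariate it stood at -0.91 (adjusted p = 0.141). Gpx3 levels were 87.8, 101 and 214 CPM in air and 86.7, 118 and 148 CPM in smoke, with a log2 fold change of 0.11 ± 0.10 (SE) and an edgeR adjusted p of 0.680. The highest air value came from air replicate 11 alone, the next being 124 CPM. With that replicate left out, the log2 fold change of Gpx3 was 0.24. The secreted pair thus had a median of -0.17 over 2 values of opposite sign.

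Of the ER and microsomal genes, Prdx4, Mgst1 and Mgst3 were tested and none was called or reached an unadjusted p under 0.05, with a median of 0.04. Mgst3, a microsomal transferase of the leukotriene C4 synthase family, had the smallest p. Its levels were 19.5, 46.0 and 56.7 CPM in air and 34.1, 54.8 and 69.6 CPM in smoke, with a log2 fold change of 0.21 ± 0.12 (SE) and an edgeR adjusted p of 0.415. Smoke was above the air mean in 10 of 13 samples. The value of Mgst3 was 0.13 without air replicate 11 and 0.49 with the clock index as a covariate (adjusted p = 0.159). Mgst1, the most abundant of them, had 33.4, 48.3 and 73.8 CPM in air and 40.6, 54.8 and 64.6 CPM in smoke. Its log2 fold change was 0.04 ± 0.10 (SE), with edgeR adjusted p = 0.917, and -0.02 without air replicate 11.

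Cat, the peroxisomal catalase, had the second smallest p of the set. Its levels were 95.6, 120 and 140 CPM in air and 82.9, 97.1 and 138 CPM in smoke (lowest, median and highest). In smoke 12 of 13 samples lay below the air mean and 5 lay below every air sample, while smoke replicate 13 gave the highest smoke value. Means were 120 ± 14.4 CPM (SD, n = 11) and 101 ± 14.9 (SD, n = 13), with a log2 fold change of -0.25 ± 0.074 (SE) and an edgeR adjusted p of 0.0679. Cat lay on the other side of the threshold with smoke replicate 13 left out (adjusted p = 0.0154), with air replicate 2 left out (0.0404) and in DESeq2 (0.0428).

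The compartments were set side by side by counts and medians only. Called genes numbered 0 of 20 in the cytosol, 1 of 9 in mitochondria, 0 of 2 among secreted enzymes and 0 of 3 in the ER and microsomes, beside 1.92% of all tested genes. Negative values were 10 of 20 in the cytosol and 8 of 9 in mitochondria, against 48.4% of all tested genes. Of the 8, Glrx2 (-0.008 ± 0.063), Gstk1 (-0.02 ± 0.072), Txnrd2 (-0.03 ± 0.14) and Sod2 (-0.06 ± 0.058) lay within 1 SE of 0. Gstk1, Prdx5 and Msra are also known from other places in the cell. With 1 sample left out, the median ran from -0.04 to 0.01 in the cytosol and from -0.02 to 0.09 in the ER and microsomes, changing sign. It ran from -0.08 to -0.04 in mitochondria and from -0.23 (without smoke replicate 13) to -0.09 (without air replicate 11) among secreted enzymes. Whether compartments differ from each other was not tested. The 5 selenoprotein genes (Gpx1, Gpx3, Gpx4, Txnrd2 and Msrb1) had no call, with Msrb1 higher and Gpx4 lower at an unadjusted p under 0.05.

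The rest of the pathway was read from a list of 66 further genes, of which 50 were tested. Of these, 3 were called by edgeR, all lower in smoke (background 1.92% called in either direction, 1.19% lower), and 11 (22%) had an unadjusted p under 0.05, 4 higher and 7 lower. The list was chosen with earlier results of these data known, so it is not independent of the background it is set beside. Srxn1, the sulfiredoxin that repairs over-oxidised peroxiredoxins of the 2-cysteine type, had 26.8, 41.1 and 46.4 CPM in air and 18.5, 24.9 and 38.5 CPM in smoke (lowest, median and highest). It fell with a log2 fold change of -0.57 ± 0.11 (SE) and an edgeR adjusted p of 0.00270, and 12 of 13 smoke samples lay below the air mean. The ranges of Srxn1 overlapped. With the clock index as a covariate its log2 fold change was -0.49 and the adjusted p 0.142.

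Nqo1, a quinone reductase and a known target of both NRF2 and the aryl hydrocarbon receptor, had 14.02, 17.5 and 26.5 CPM in air and 10.4, 13.2 and 16.2 CPM in smoke. It fell with a log2 fold change of -0.44 ± 0.10 (SE) and an edgeR adjusted p of 0.0140, with all 13 smoke samples below the air mean. The call of Nqo1 ended with the replicate number as a block (-0.46, adjusted p = 0.0504), the erythroid score (-0.48, adjusted p = 0.0587) and the clock index (-0.45, adjusted p = 0.187), at folds of about the same size. Slc25a39, which carries glutathione into mitochondria, had 33.9, 43.5 and 50.1 CPM in air and 28.2, 34.1 and 41.0 CPM in smoke. It fell with a log2 fold change of -0.29 ± 0.074 (SE) and an edgeR adjusted p of 0.0274, again with all 13 smoke samples below the air mean. The call of Slc25a39 depended on single samples, with an adjusted p of 0.0562 without air replicate 6, 0.0523 without air replicate 7 and 0.0507 without smoke replicate 8. It also ended with the erythroid score (-0.28, adjusted p = 0.155) and the clock index (-0.38, adjusted p = 0.115).

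The remaining regulators and suppliers were not called. Gclc and Gclm encode the subunits of the enzyme that limits glutathione synthesis, and their log2 fold changes were -0.15 ± 0.22 (SE) and 0.09 ± 0.21 (SE), with edgeR adjusted p = 0.814 and 0.894. Txnrd1, the cytosolic thioredoxin reductase, had -0.20 ± 0.14 (SE) and Nfe2l2, which encodes NRF2, had -0.15 ± 0.14 (SE), with edgeR adjusted p = 0.525 and 0.669. With 1 sample left out, Nfe2l2 ranged from -0.22 to -0.04 (the latter without air replicate 5) and Gclc from -0.24 (without air replicate 11) to -0.0002 (without air replicate 10). Gclc and Gclm lay at 3.62 ± 1.54 and 5.74 ± 2.41 CPM in air (SD, n = 11). No gene was called among 7 tested genes of NADPH supply, 5 further transferases and 8 genes of selenium handling.

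NRF2 binds the antioxidant response element, and many genes of this pathway are known to respond to it. The core of that element, TGACNNNGC, was searched on both strands of RefSeq promoter windows (GRCm38.p6, 250 bases before to 50 bases after the start). It occurred in 5 of the 32 enzyme genes with a window (15.6%), beside 17.2% of tested genes, 14% of all genes and 25.9% of the 54 further pathway genes with a window. The 5 are printed with the core in capitals, as read along the gene's strand, because they are the enzyme genes whose window holds it. They lie at chr1:21240450-21240486 (Gsta3), chr3:107895798-107895834 (Gstm5), chr4:116685452-116685488 (Prdx1), chr6:138140457-138140493 (Mgst1) and chr16:90220692-90220728 (Sod1), all plus strand, with the core upstream of the RefSeq start of the window. The Mgst1 stretch lies inside the gene as GENCODE M21 places it (chr6:138140316-138156755). Where the core is on the opposite strand it reads GCNNNGTCA.
Gsta3: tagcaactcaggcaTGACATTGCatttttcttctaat
Gstm5: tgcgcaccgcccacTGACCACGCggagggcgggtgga
Prdx1: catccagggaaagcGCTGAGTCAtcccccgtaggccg
Mgst1: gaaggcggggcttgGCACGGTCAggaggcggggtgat
Sod1: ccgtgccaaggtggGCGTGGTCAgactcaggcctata
Of the 5, Gsta3 was not tested and none of the others was called, with log2 fold changes from -0.07 (Sod1) to 0.07 (Gstm5). Of the 3 further pathway genes that were called, Srxn1 holds the core in its window, while Nqo1 and Slc25a39 do not. Nfe2l2, Gclm and Txnrd1, which were not called, hold it too. The window of Prdx5 did not hold these letters. Gsr, Gsta4, Gstt2, Msra, Prdx6 and Sod3 had no window. A match is a description of the sequence.

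Markers of other cells were read beside these results. Red cells are rich in the products of Prdx2, Gpx1 and Cat. Of 5 erythroid markers 3 were called lower in smoke (Hba-a2, Hbb-bs and Hbb-bt). Alas2 and Hba-a1 had negative values too, -0.75 (edgeR adjusted p = 0.0672) and -0.14 (edgeR adjusted p = 0.548), and were not called. The summed level of the 5 was 486 to 1444 CPM in air (median 765) and 369 to 883 in smoke (median 558), and none was at 0. With the erythroid score as a covariate, the log2 fold change of Prdx5 was -0.22 (edgeR adjusted p = 0.153), that of Cat -0.26 (0.206) and that of Gstt2 0.67 (0.0395). In the same fit Prdx2 stood at -0.11 (adjusted p = 0.492) and Gpx4 at -0.13 (adjusted p = 0.585). The score differs between the groups, so that this fit tests the part of the difference that the score does not share.

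Within groups, Gpx1 and the erythroid score had a Pearson's r of 0.74 in air (permutation p = 0.00933, adjusted p = 0.0560 over 6 relations) and a Spearman's rho of 0.76 (permutation p = 0.00797, adjusted p = 0.0478), with r = 0.65 without the 2 samples farthest from the median score. In smoke r was -0.39 (permutation p = 0.188, adjusted p = 0.376) and rho -0.43 (p = 0.142, adjusted p = 0.283), with r = -0.35 without 2 samples. For Prdx2, r was 0.58 in air (permutation p = 0.0620, adjusted p = 0.186; rho 0.48, p = 0.137, adjusted p = 0.283) and -0.26 in smoke (permutation p = 0.392, adjusted p = 0.588; rho -0.32, p = 0.281, adjusted p = 0.366). Without 2 samples these were 0.50 and -0.43. The values of both genes were positive in air and negative in smoke, and the difference between the groups was not tested.

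**Figure D4:**
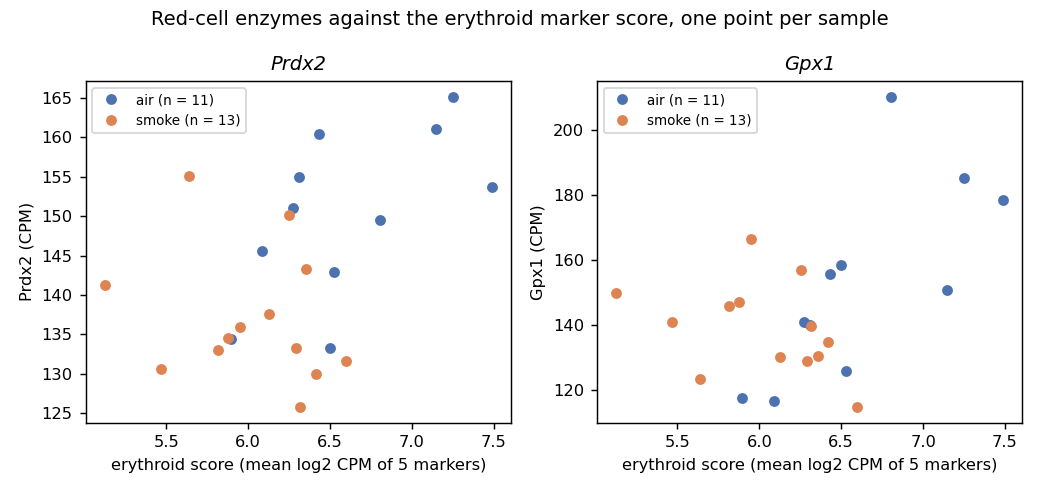
Level of Prdx2 and Gpx1 in CPM against the erythroid score, the mean log2 CPM of 5 markers, one point per sample (air n = 11 in blue, smoke n = 13 in orange). Pearson's r for Gpx1 is 0.74 in air and -0.39 in smoke, and several air samples lie at higher scores than any smoke sample.

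Fat is a known source of Gpx3, and none of 6 adipocyte markers was called by edgeR (summed level 680 to 1503 CPM in air and 795 to 1979 in smoke). Gpx3 and the adipocyte score had r = 0.056 in air (permutation p = 0.830, adjusted p = 0.830; rho 0.34, p = 0.315, adjusted p = 0.366) and r = 0.20 in smoke (permutation p = 0.498, adjusted p = 0.598; rho 0.27, p = 0.366, adjusted p = 0.366). Without 2 samples r was 0.15 and 0.39. Markers of endothelium, fibroblasts and macrophages also held no call (0 of 5, 0 of 5 and 0 of 3 tested).

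Clock genes moved with the group as well. Of 5 genes known to rise with clock output 3 were called higher in smoke (Dbp, Per3 and Nr1d2). The 5 summed to 335 to 455 CPM in air and 347 to 534 in smoke. Of 3 tested genes of the opposite phase 1 was called lower (Nfil3). With an index of these genes as a covariate, the log2 fold change of Prdx5 was -0.26 with an edgeR adjusted p of 0.159, and 0 of 35 enzyme genes were called (9 at an unadjusted p under 0.05). Over the whole table that fit called 35 genes (0.345%), with 1406 (13.8%) at an unadjusted p under 0.05. The index differs between the groups and holds Nfil3, the gene with the smallest adjusted p of the whole comparison (edgeR, 1.31e-06), so that this fit too tests only what the index does not share. Time of collection is not given in the sources used here.

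The share of counts on genes of the mitochondrial genome also varied between samples, at 2.91 ± 0.424% in air and 2.84 ± 0.269% in smoke (SD, n = 11 and 13), and it was taken up after the values had been seen. The lowest share of air was 1.82% in air replicate 11 and the lowest of smoke 2.35% in smoke replicate 10. These 2 libraries also had the lowest TMM factor of their groups (0.857 and 0.904), and 16.1% and 17.7% of their counts lay on Gm42418, a gene that overlaps ribosomal RNA sequence. The Gm42418 share was 12.7 ± 1.85% in air and 14.3 ± 2.18% in smoke (SD, n = 11 and 13), and its part in the enzyme results was not tested. Air replicate 11 had the lowest air levels of Txn1 (15.1 CPM), Mgst3 (19.5), Prdx3 (7.56) and Sod2 (176), and the highest of Gpx3 (214), Gpx1 (210.3), Sod1 (478), Prdx1 (389) and Gstm2 (45.3). Among 70 relations of an enzyme gene with this share, 3 in air and 4 in smoke passed for r, and Sod2 and Txn1 did so in both groups.

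For Sod2, r was 0.93 in air (permutation p = 0.000900, adjusted p = 0.0454; rho 0.69, p = 0.0227, adjusted p = 0.237) and 0.76 in smoke (permutation p = 0.00272, adjusted p = 0.0454; rho 0.62, p = 0.0278, adjusted p = 0.237). For Txn1, r was 0.89 in air (permutation p = 0.00390, adjusted p = 0.0454; rho 0.51, p = 0.115, adjusted p = 0.384) and 0.80 in smoke (permutation p = 0.00136, adjusted p = 0.0454; rho 0.73, p = 0.00716, adjusted p = 0.237). Without the 2 samples farthest from the median share, r in air was 0.60 for Sod2 and 0.25 for Txn1, and in smoke 0.53 for each. The air relation of Txn1 rests on those samples. Prdx1 had r = -0.79 in air (permutation p = 0.00454, adjusted p = 0.0454; rho -0.56, p = 0.0769, adjusted p = 0.317), and r = -0.20 without 2 samples, on which the relation rests. Gstz1, a transferase of tyrosine breakdown, had r = -0.74 in smoke (permutation p = 0.00413, adjusted p = 0.0454; rho -0.61, p = 0.0301, adjusted p = 0.237), and r = -0.69 without 2 samples. Mgst3 in smoke was the one relation that passed for both measures (r = 0.75, permutation p = 0.00322, adjusted p = 0.0454; rho 0.85, p = 0.000410, adjusted p = 0.0287; r = 0.63 without 2 samples). For Prdx5, r was -0.15 in air (permutation p = 0.679, adjusted p = 0.820; rho -0.01, p = 0.990, adjusted p = 1.0) and 0.26 in smoke (permutation p = 0.394, adjusted p = 0.587; rho 0.23, p = 0.448, adjusted p = 0.766), and without 2 samples -0.04 and 0.0046. With both libraries lowest in the share left out, Prdx5 stood at -0.24 on the log2 scale (edgeR adjusted p = 0.0245) and Gstt2 at 0.55 (0.0271), and both were called.

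**Figure D5:**
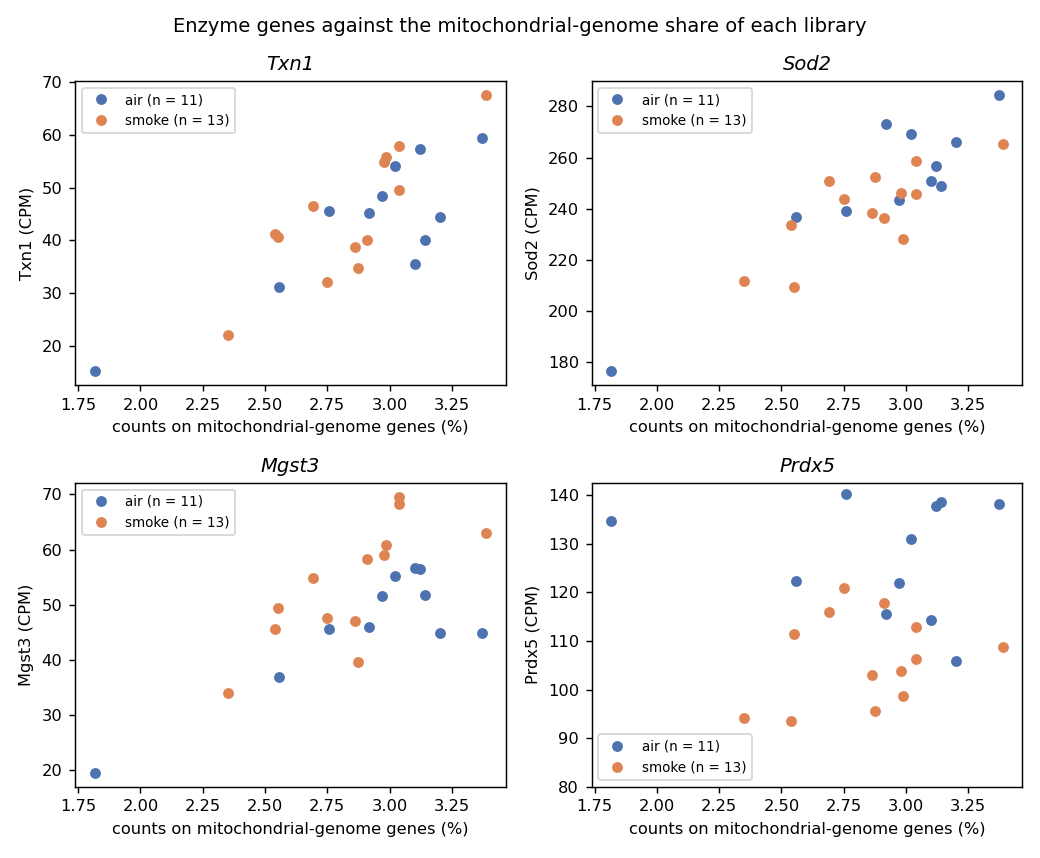
Level of Txn1, Sod2, Mgst3 and Prdx5 in CPM against the percent of counts on mitochondrial-genome genes, one point per sample (air n = 11 in blue, smoke n = 13 in orange; the vertical axes do not start at 0). Txn1, Sod2 and Mgst3 are lowest in air replicate 11 at a share of 1.82%, while Prdx5 has air above most smoke samples along the axis.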

How the data were processed

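Plantaris RNA was sequenced with the Lexogen QuantSeq 3′ FWD kit, per the labels' protocols. The deposited values are unnormalised read counts for each Ensembl gene ID, in 1 column for each of 24 samples. The submitters' processing notes name STAR, DESeq2 and the mm9 build, without roles; the counting tool, annotation and strand setting are not given in the sources used here. Symbols and coordinates came from GENCODE M21 (GRCm38), which held 47224 IDs (99.1%), and promoter windows from RefSeq GRCm38.p6.

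The main test was that of edgeR 4.0.16 (R 4.3.3): filterByExpr by group with a minimum count of 10, TMM scaling, glmQLFit and glmQLFTest of smoke against air on 24 samples without covariates, and Benjamini-Hochberg adjustment over 10159 genes. The procedure was tested on simulated data. Scores are mean log2 CPM with a prior count of 2; correlations used 100000 permutations, two-sided. Depth limits precision most for genes with few counts. Chi-square per gene over 133 pairs of samples within groups was 2.52 to 18.5, so that no library was a copy of another.

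Members and lists were chosen with earlier results of these data known. Named in full were members called, those at an unadjusted p under 0.05, the smallest p and most abundant member of each compartment, called pathway genes with Gclc, Gclm, Txnrd1, Srxn1 and Nfe2l2, and the 3 genes most like the leading member. Other names and the mitochondrial share were taken up with their values in view. Alternatives were RLE and upper-quartile scaling, no filter, DESeq2 1.42.0, limma 3.58.1 (voom), the replicate number as a block, covariates, removal of the 10 most abundant genes and leaving out samples. The result of 1 further marker list is not reported here.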

Additional observations from a re-analysis of the deposited data

How the results depend on the processing

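Scaling by RLE or upper quartile, no filter, limma voom and removal of the 10 most abundant genes kept Prdx5 as the one enzyme gene called, with 175 to 206 genes called of all tested. Genes called over the table numbered 323 with DESeq2, 56 with the erythroid score, 35 with the clock index and 391 with the mitochondrial share as a covariate, and 141 to 254 with 1 sample left out. Enzyme genes called numbered 3 with DESeq2 (Cat, Gstt2 and Prdx5), 0 with the clock index, 3 with the mitochondrial share (Cat, Mgst3 and Prdx5), 2 without both libraries lowest in that share, and 1 to 2 with 1 sample left out; with the erythroid score the 1 called was Gstt2. Prdx5 was called in each of the fits with 1 sample left out, with log2 fold changes from -0.29 to -0.25. Further pathway genes called numbered 1 with the erythroid score (Srxn1), 0 with the clock index (15 at an unadjusted p under 0.05), 6 with the mitochondrial share and 2 to 4 with 1 sample left out. The covariates and the block left the log2 fold changes of Srxn1, Nqo1 and Slc25a39 between -0.65 and -0.28. The clock index gave a median of -0.54 for the secreted genes and turned the sign of Gpx3 (-0.17), Sod2 (0.063) and Txnrd1 (0.13); the sign also turned for Mgst1 without air replicate 11 and for Gclm without smoke replicate 5 (-0.019 to 0.094 and -0.0072 to 0.20 with 1 sample left out), none of them called. Among named genes not called in either fit, those that moved by over 1.5 times with these covariates and kept their sign were, with the clock index, Mgst1 (0.24), Mgst3 (0.49), Msrb1 (0.010), Sod1 (-0.22), Sod3 (-0.91) and Gclm (0.17), and with the erythroid score Gpx3 (0.17), Gpx4 (-0.13), Gclc (-0.34), Nfe2l2 (-0.07) and Txnrd1 (-0.33). Moves of that size also came with the mitochondrial share (Sod2 -0.027, Mgst1 0.082, Gclc -0.09 and Nfe2l2 -0.09), without both low-share libraries (Gpx3 0.22 and Mgst1 0.011), with the block (Mgst1 0.07), without air replicate 11 (Sod1 -0.04) and without smoke replicate 2 (Txnrd1 -0.13). The cause of these shifts was not tested. The replicate numbers did not pair the samples: over 11 pairs, deviations correlated at -0.28 to 0.14, and 2 air samples correlated best with their own number. The replicate block, on 22 samples, called 138 genes and 2 enzyme genes, Prdx5 (-0.29, adjusted p = 0.0228) and Cat (-0.32, adjusted p = 0.0166), with Nqo1 at 0.0504. Depth limits Sod3, Gstt1, Glrx, Gss, Prdx4 and the 3 genes under the filter most.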
